A study of Mus musculus with 6 samples.

Results

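The genes described here copy the DNA of a dividing cell and supply the nucleotides for it. They were taken from a list of 45 mouse genes that covers the origin recognition complex, the licensing factors, the Mcm helicase and its activators, the polymerases, the sliding clamp and its loader, replication protein A, the joining of lagging-strand fragments, chromatin assembly behind the fork, and 4 enzymes of nucleotide supply. The array annotation gave a probe set that it assigns to 1 listed gene alone for 44 of the 45, out of 18193 genes represented in this way. Chaf1a was not analysed here. Where several probe sets read a gene, its values are those of the brightest, by the mean log2 signal of the 6 arrays.

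RNA came from whole spleens of male C57BL/6J mice, 8 weeks old at the start, that received their diet for 15 weeks. The 3 control mice ate a casein and cornstarch diet with 4% cellulose, and the 3 garlic-fed mice ate the same diet with 4% lyophilized raw garlic powder in place of the cellulose. Each mouse was measured on 1 Affymetrix array, and the values are MAS5 signals, the brightness of a group of short oligonucleotides designed for an mRNA. Some of these groups can also match other mRNAs. In whole spleen, more cells that copy their DNA and more mRNA in each such cell cannot be told apart.

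A cell copies its DNA once in each division, during S phase. In the G1 phase before it, the origin recognition complex, Cdc6 and Cdt1 load a ring of 6 Mcm proteins on each origin. In S phase Cdc45 and the GINS complex turn this ring into the active helicase, the primase and DNA polymerase α start each strand, the clamp loader closes Pcna around the DNA, and polymerases δ and ε extend it. Ribonucleotide reductase, thymidylate synthase and thymidine kinase provide the deoxynucleotides. In the adult mouse spleen, DNA is copied mainly by erythroblasts and other precursors of the red pulp and by activated lymphocytes.

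The spleens were recognizable as spleen, with Ms4a1 and Cd79a of B cells at signals of 8894 or more in every mouse and Vcam1 of red pulp macrophages at 12485.1 or more. The median signal of all probe sets lay between 127.9 and 132.2 in control mice and between 119.7 and 128.8 in garlic-fed mice. Genes of the pancreas, an organ that lies against the spleen, differed between the arrays, with signals of 7 such genes adding up to between 13567 and 98784 in control mice and between 1997 and 25305 in garlic-fed mice. Control mouse 1 and garlic-fed mouse 2 held the most pancreatic signal of their groups.

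Most replication genes had a somewhat higher signal in the garlic-fed spleens, and the largest log2 fold changes were those of Cdc6, Orc1, Tyms and Rrm2. No member passed the threshold of an adjusted p under 0.05 (limma, Benjamini-Hochberg over 27022 probe sets) in either direction, while 0.343% of all 12262 genes tested passed as higher and 0.00816% as lower. At an unadjusted p under 0.05, 14 of the 44 members (31.8%) were higher and none was lower, against 6.89% of all genes as higher and 6.24% as lower. The groups were apart with the garlic-fed mice higher in 13 members (29.5%) and with the garlic-fed mice lower in 1, Rfc1, where 9.13% and 10.7% of all genes were apart in these directions. The log2 fold change was above 0 in 37 members (84.1%), against 44.2% of all genes. Its median was 0.17 over the members (quartiles 0.083 and 0.34) and -0.028 over all genes tested. All 44 members passed the filter on dim probe sets, so none was left out for a low signal. By the study's criterion of garlic/control above 1.8 with an unadjusted p under 0.05, Cdc6 alone was higher and none was lower, against 1.08% and 0.546% of all genes. The p is that of limma, where the study used a one-way analysis of variance. The folds can differ too, since the cyclins Ccna2 and Ccnf, which the study listed above 1.8, had 1.71 and 1.77 here.

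The mice of the garlic group did not contribute equally. Relative to the mean of the control mice, garlic-fed mice 1, 2 and 3 had a median log2 signal over the 44 members of 0.034, 0.22 and 0.38, and control mice 1, 2 and 3 of -0.077, 0.060 and 0.010. Garlic-fed mouse 1 thus lay within the range of the control mice in this median, and garlic-fed mouse 3 stood highest. Markers of fat tissue also divided the garlic-fed mice, with medians of 1.51, 1.63 and -0.47 in mice 1, 2 and 3 over 5 genes tested, and Adipoq, a fat cell hormone, had signals of 274.3, 464.6 and 310.2 in the control mice against 1032.5, 1129.3 and 245.9 in the garlic-fed mice. The part of fat tissue in the values of the replication genes was not tested. Of the 44 members, 30 (68.2%) had their highest signal in garlic-fed mouse 3, against 19.2% of all genes tested, and 19 (43.2%) had their lowest in control mouse 1, against 19.4%. The median log2 fold change of the members was 0.27 without garlic-fed mouse 1 and 0.12 without garlic-fed mouse 3.

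**Figure D1:**
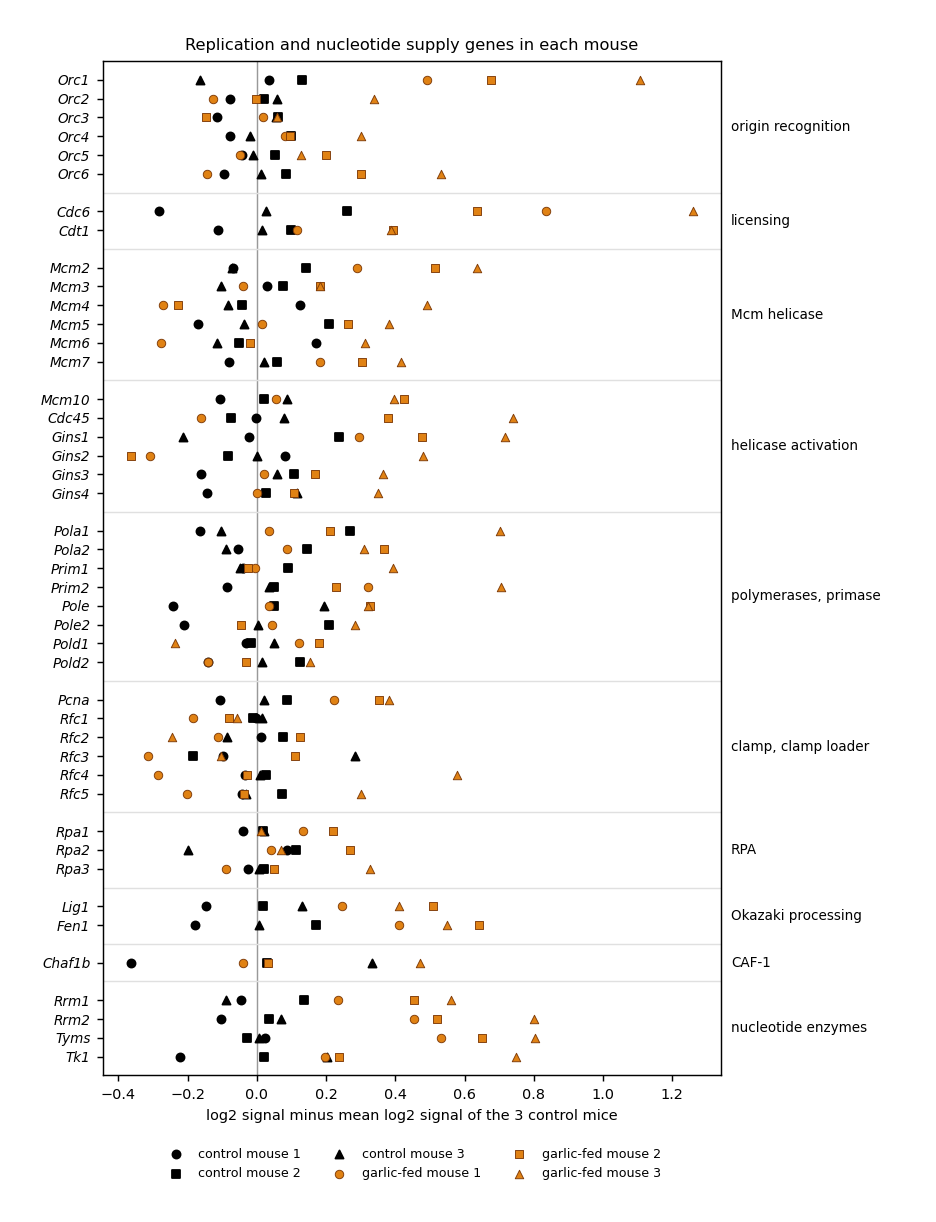
Log2 signal of the 44 members in each mouse, with the average of the 3 control mice subtracted (horizontal axis), grouped by complex; black symbols are control mice and orange symbols garlic-fed mice. Garlic-fed mouse 3 (orange triangles) is highest in 30 members, and the groups are apart for all members of the licensing and Okazaki groups and for 3 of the 4 nucleotide enzymes.

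Promoters of several members are shown because many replication genes are known targets of E2F, the transcription factor family that switches on S phase genes. The sequences are from RefSeq (GRCm38.p6) and run 5′ to 3′ on the strand of the gene and, except for Mcm5, end at its annotated start, with capitals where a script found TTTCCCGC, TTTGGCGC, TTTCGCGC or TTTGCCGC on either strand, 4 ways to spell the E2F core, which can overlap each other. Cdc6 (chr11:98907991-98908150, plus strand) and Orc1 (chr4:108579304-108579453, plus strand) are the members with the largest differences.
Cdc6: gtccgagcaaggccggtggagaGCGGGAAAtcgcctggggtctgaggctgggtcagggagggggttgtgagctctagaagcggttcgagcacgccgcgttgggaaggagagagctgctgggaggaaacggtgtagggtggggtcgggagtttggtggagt
Orc1: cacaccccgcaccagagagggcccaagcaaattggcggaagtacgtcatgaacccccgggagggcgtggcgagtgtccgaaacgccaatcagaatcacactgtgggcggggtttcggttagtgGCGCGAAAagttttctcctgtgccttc
Rrm2 (chr12:24708104-24708253, plus strand) is the member with the smallest unadjusted p and has no match.
Rrm2: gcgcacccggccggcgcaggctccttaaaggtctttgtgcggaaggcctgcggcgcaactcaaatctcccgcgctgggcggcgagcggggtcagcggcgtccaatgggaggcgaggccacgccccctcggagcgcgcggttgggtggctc
Mcm6 (chr1:128359706-128359855, minus strand) and 50 bases of Mcm5 (chr8:75109339-75109388, plus strand), all before its start, hold overlapping matches, while neither gene reached an unadjusted p under 0.05.
Mcm6: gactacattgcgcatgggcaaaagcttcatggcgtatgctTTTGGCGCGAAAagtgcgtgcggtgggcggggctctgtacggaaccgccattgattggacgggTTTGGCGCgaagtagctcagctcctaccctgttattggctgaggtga
Mcm5: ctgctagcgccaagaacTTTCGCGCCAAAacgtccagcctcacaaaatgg

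The match in Cdc6 begins 138 bases before the annotated start and that in Orc1 27 bases before it. The table holds promoters of 38 members, and 14 of these members (36.8%) had a match in a window from 250 bases before to 50 after an annotated start. Over the whole table, 2.6% of 27025 genes had one, a figure that includes genes of every kind, and 2.26% of 32851 promoters did. Among members at an unadjusted p under 0.05, 5 of 12 had a match (41.7%), and among the other measured members, 9 of 25 (36%). No match says only that these letters are not in the window.

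Among the 6 subunits of the origin recognition complex, which marks the sites where copying starts, only Orc1 reached an unadjusted p under 0.05. Orc1 encodes the large ATP-binding subunit, whose amount changes through the cell cycle. Its signal was 222.4, 237.2 and 193.5 in the control mice against 305, 346.9 and 467.4 in the garlic-fed mice. The groups do not overlap, and garlic-fed mouse 3 was highest. The log2 fold change was 0.76 with a standard error (SE) of 0.19 and an adjusted p of 0.163 from limma, a 1.69-fold difference. The other 5 subunits, Orc2 to Orc6, had log2 fold changes from -0.024 for Orc3 to 0.23 for Orc6, and in each of them the groups overlapped. Orc5, the brightest of the complex, had signals of 992.8, 1061.2 and 1015.2 in the control mice against 988.9, 1175.1 and 1117.4 in the garlic-fed mice (log2 fold change 0.093, SE 0.11, adjusted p = 0.821). The median over the 6 subunits was 0.13.

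Cdc6 and Cdt1, the licensing factors, were both higher after garlic at an unadjusted p under 0.05. Cdc6 encodes the ATPase that joins the origin recognition complex in G1 phase and helps to load the Mcm ring. Its signal was 755.1, 1099.6 and 935.1 in the control mice against 1639.9, 1427.4 and 2198.8 in the garlic-fed mice, so that the lowest garlic-fed mouse lay above the highest control mouse. With 930 ± 172 (SD, n = 3) against 1755 ± 398 (SD, n = 3), the fold was 1.88, the largest of all members (log2 fold change 0.91, SE 0.18, adjusted p = 0.0831). Without control mouse 1 or without garlic-fed mouse 3 the number of members that met the study's criterion was 0, and without garlic-fed mouse 1 it was 2. Cdt1, which brings the Mcm proteins to the origin and is destroyed once S phase begins, had signals of 4589, 5313.3 and 5013 in the control mice against 5375.1, 6513.6 and 6485.2 in the garlic-fed mice. Its groups are close, with garlic-fed mouse 1 just above control mouse 2, and its log2 fold change was 0.30 (SE 0.10, adjusted p = 0.291).

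The 6 genes of the Mcm ring, whose proteins act in equal numbers, differed in their values. Mcm2 had signals of 1526.9, 1769.6 and 1523.6 in the control mice against 1956.7, 2289.6 and 2492.3 in the garlic-fed mice. Mcm7 had 6761.6, 7442.8 and 7253.5 in the control mice against 8102.5, 8825.1 and 9529.3 in the garlic-fed mice. In both genes all garlic-fed mice lay above all control mice, with log2 fold changes of 0.48 for Mcm2 (SE 0.12, adjusted p = 0.146) and 0.30 for Mcm7 (SE 0.084, adjusted p = 0.205). Mcm3, Mcm4, Mcm5 and Mcm6 had log2 fold changes of 0.11, -0.0022, 0.22 and 0.0053, and their groups overlapped. The signal of Mcm4 was lower in garlic-fed mice 1 and 2 than in any control mouse and highest in garlic-fed mouse 3. A further probe set of Mcm4 gave 0.44 (SE 0.11, adjusted p = 0.173), with the groups apart, so the value of Mcm4 depends on the probe set. Whether the change of one Mcm gene differs from that of another was not tested.

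Of the genes that turn the loaded ring into a moving helicase, Gins1 was the only one at an unadjusted p under 0.05. Gins1 encodes a subunit of the GINS complex, and its signal was 379.5, 455 and 332.8 in the control mice against 473.7, 536.6 and 634.1 in the garlic-fed mice (log2 fold change 0.50, SE 0.17, adjusted p = 0.293). The groups were apart by the small gap between control mouse 2 and garlic-fed mouse 1, and a second probe set of this gene gave -0.30, so that the log2 fold change was 0.10 with both averaged. That second probe set was dim, with signals of 74, 79.6 and 94.7 in the control mice against 61.8, 61.6 and 79.2 in the garlic-fed mice. Cdc45, whose protein binds the ring together with GINS, had a log2 fold change of 0.32 (SE 0.21, adjusted p = 0.646). Mcm10, which helps the helicase to start, had one of 0.29 (SE 0.15, adjusted p = 0.506). Gins2, Gins3 and Gins4 had log2 fold changes of -0.064, 0.18 and 0.15. Gins4, the brightest of this group, had signals of 957.4, 1077.1 and 1146.9 in the control mice against 1058.1, 1138.5 and 1347.4 in the garlic-fed mice (SE 0.13, adjusted p = 0.723).

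Among 8 genes of the polymerases and the primase, Prim2, which encodes the large primase subunit, was the only one at an unadjusted p under 0.05. Its signal was 477.2, 524.6 and 519.1 in the control mice against 632.4, 593.3 and 825.6 in the garlic-fed mice, with no overlap (log2 fold change 0.42, SE 0.15, adjusted p = 0.33). The catalytic and second subunits of polymerase α, Pola1 and Pola2, had log2 fold changes of 0.32 and 0.25, and the small primase subunit Prim1 one of 0.12. The genes of the leading-strand polymerase ε, Pole and Pole2, gave 0.23 and 0.093, and those of polymerase δ, Pold1 and Pold2, gave 0.021 and -0.0068. Pold1, the brightest of the 8, had signals of 1506.9, 1522 and 1596.1 in the control mice against 1675.2, 1745.5 and 1307.8 in the garlic-fed mice (SE 0.12, adjusted p = 0.97). In this probe set garlic-fed mouse 3, the highest in most members, was the lowest of all mice. A further Pold1 probe set had signals of 1161.8, 1161.8 and 1292.2 in the control mice against 1105.4, 1201.5 and 1301.9 in the garlic-fed mice. There garlic-fed mouse 3 was the highest, so its rank in Pold1 depends on the probe set.

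The sliding clamp and its loader gave different values. Pcna, the ring that holds the polymerases on DNA, had signals of 12101.5, 13841.2 and 13218.2 in the control mice against 15193.4, 16647.1 and 16978 in the garlic-fed mice. The groups do not overlap, and the spread was small, with 13054 ± 881 (SD, n = 3) against 16273 ± 949 (SD, n = 3), 1.25 times the control mean (log2 fold change 0.32, SE 0.078, adjusted p = 0.147). The 5 genes of the loader, Rfc1 to Rfc5, had log2 fold changes from -0.11 for Rfc1 to 0.088 for Rfc4, none at an unadjusted p under 0.05. Rfc1, the large loader subunit, had signals of 1238.8, 1231.3 and 1254 in the control mice against 1092.2, 1172.9 and 1192.3 in the garlic-fed mice, the one member in which all garlic-fed mice were lower than all control mice (SE 0.10, adjusted p = 0.757). The 2 further Rfc1 probe sets tested gave -0.32 (SE 0.13, adjusted p = 0.388), with the groups apart, and -0.062, with the groups overlapping. The difference between Pcna and the loader genes was not tested.

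Replication protein A, which covers single-stranded DNA at the fork, showed small differences in all 3 genes. Rpa1, Rpa2 and Rpa3 had log2 fold changes of 0.12, 0.13 and 0.096, and their groups overlapped. Rpa1, the largest subunit and the brightest of the 3, had signals of 7155.1, 7443.5 and 7458.4 in the control mice against 8057.9, 8565 and 7417.5 in the garlic-fed mice (SE 0.078, adjusted p = 0.631).

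The genes that finish the lagging strand were both higher at an unadjusted p under 0.05. Fen1 encodes the nuclease that trims the flap before each Okazaki fragment. Its signal was 1796.2, 2288.9 and 2042 in the control mice against 2702.2, 3171.1 and 2974.6 in the garlic-fed mice, and the groups do not overlap. The log2 fold change was 0.53 (SE 0.11, adjusted p = 0.0976), a 1.45-fold difference. Lig1, the ligase that seals the fragments, had 1179.8, 1320.9 and 1429.7 in the control mice against 1548.1, 1859.7 and 1734.3 in the garlic-fed mice (log2 fold change 0.39, SE 0.11, adjusted p = 0.227). In these 2 probe sets garlic-fed mouse 2 was the highest. In a further Fen1 probe set garlic-fed mouse 3 was, with signals of 2203, 2544 and 3171.7 in garlic-fed mice 1, 2 and 3. Chaf1b, a subunit of the factor that places new histones behind the fork, had signals of 335.9, 441.4 and 544.5 in the control mice against 420.6, 441.5 and 599.4 in the garlic-fed mice, with a broad overlap (log2 fold change 0.15, SE 0.20, adjusted p = 0.846). Its log2 fold change turned to -0.47 with its probe sets averaged, but the 1 further probe set in that average fell under the filter on dim probe sets.

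Higher signals at an unadjusted p under 0.05 were found for all 4 enzymes of nucleotide supply, and in Rrm1, Rrm2 and Tyms the groups do not overlap. Rrm2, the regulatory subunit of ribonucleotide reductase that is made in S phase, had signals of 6833.4, 7514.5 and 7704 in the control mice against 10046.8, 10519.1 and 12776.7 in the garlic-fed mice. With 7351 ± 458 (SD, n = 3) against 11114 ± 1459 (SD, n = 3), it differed 1.51-fold and had the smallest p of all members (log2 fold change 0.59, SE 0.10, adjusted p = 0.0557). Its adjusted p was 0.0459 without garlic-fed mouse 1 and 0.0474 without garlic-fed mouse 3, and between 0.0133 and 0.416 over all alternatives. The other 2 probe sets of Rrm2 gave log2 fold changes of 0.59 and 0.70 with the groups apart. Rrm1, the catalytic subunit, had 2257.6, 2563.1 and 2192.5 in the control mice against 2743, 3196.8 and 3436.6 in the garlic-fed mice (log2 fold change 0.42, SE 0.11, adjusted p = 0.181). The other 2 probe sets of Rrm1 gave 0.067 and 0.23 with the groups overlapping, and with the probe sets averaged its log2 fold change was 0.24 at an unadjusted p of 0.0803 from limma.

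Tyms encodes thymidylate synthase, which makes the thymidine nucleotide dTMP. Its signal was 147.5, 142.1 and 145.6 in the control mice against 209.8, 227.7 and 253 in the garlic-fed mice, so that the control mice lay close together and the garlic-fed mice well above them (log2 fold change 0.66, SE 0.18, adjusted p = 0.196). These signals were the dimmest of all members. The 3 further probe sets of Tyms fell under the filter, so there was no second reading. Tk1, the thymidine kinase of S phase, had 970.6, 1147.4 and 1301.1 in the control mice against 1295.9, 1334.6 and 1902 in the garlic-fed mice. Here garlic-fed mouse 1 lay just under control mouse 3 and the groups overlap (log2 fold change 0.39, SE 0.17, adjusted p = 0.421). Tk1 was at an unadjusted p under 0.05 in 10 of 17 alternatives, and its log2 fold change was 0.22 without garlic-fed mouse 3 (unadjusted p = 0.132 from limma), 0.28 without control mouse 1 (0.143) and 0.40 without control mouse 2 (0.0733). The median log2 fold change of the 4 enzymes was 0.50, next to 0.60 for the 2 licensing factors, 0.46 for the 2 lagging-strand genes, 0.24 for the helicase activators, 0.17 for the polymerases, 0.16 for the Mcm ring and -0.029 for clamp and loader together, which turned to 0.049 with each array centred on its median and lay between -0.11 and 0.067 with 1 mouse left out. With the probe sets of a gene averaged, the medians were 0.067 for the helicase activators, 0.059 for the polymerases and 0.26 for the Mcm ring. Without garlic-fed mouse 3 the helicase activators had a median of 0.10 and the Mcm ring one of 0.11, without control mouse 1 the polymerases had one of 0.10, and without garlic-fed mouse 1 the Mcm ring had one of 0.25.

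**Figure D2:**
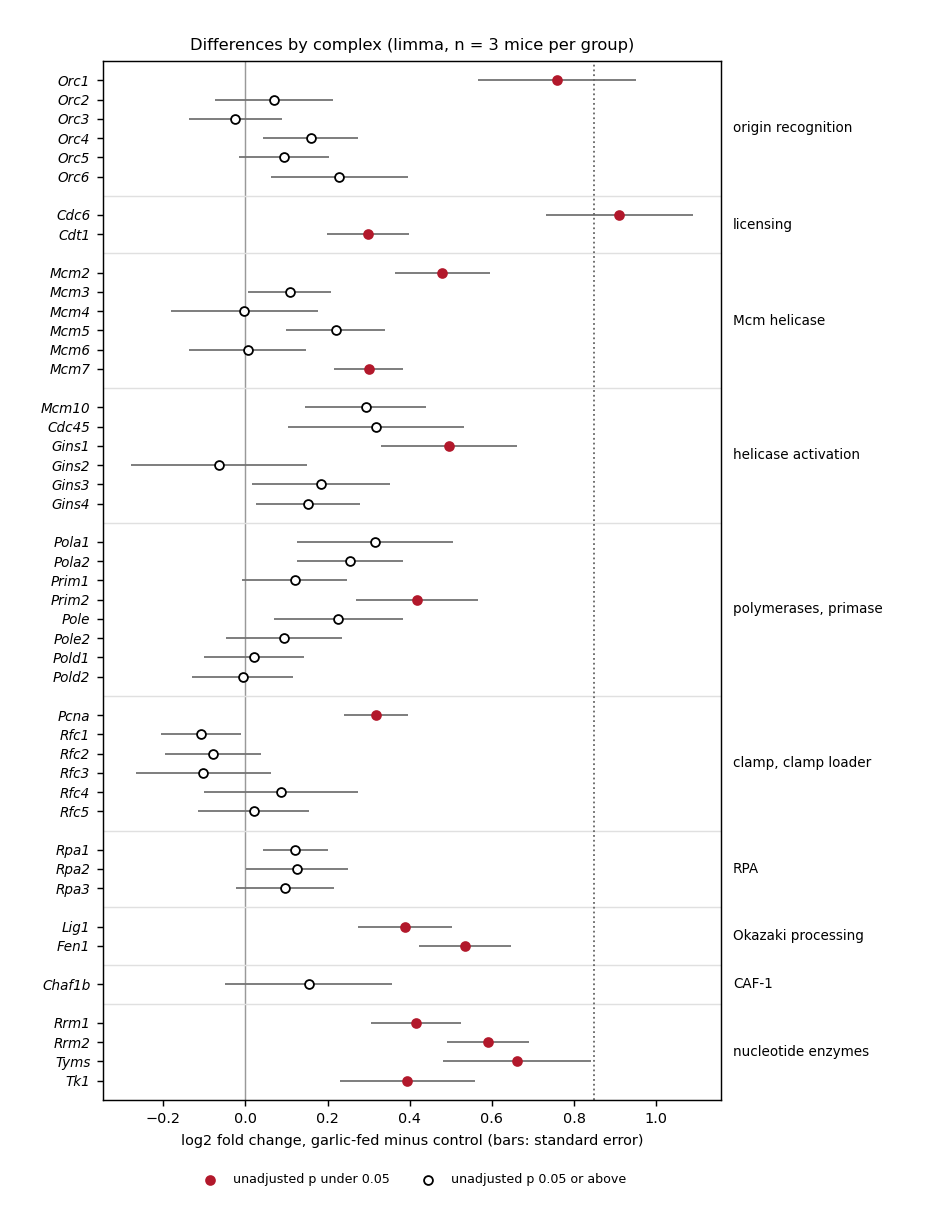
Log2 fold change of garlic-fed over control mice for each member with its standard error from limma (3 mice per group), grouped by complex; filled red points have an unadjusted p under 0.05 and the dotted line marks a fold of 1.8. Cdc6 alone lies past the line at 0.91, and the Rfc genes and Mcm4 and Mcm6 lie near 0.

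**Figure D3:**
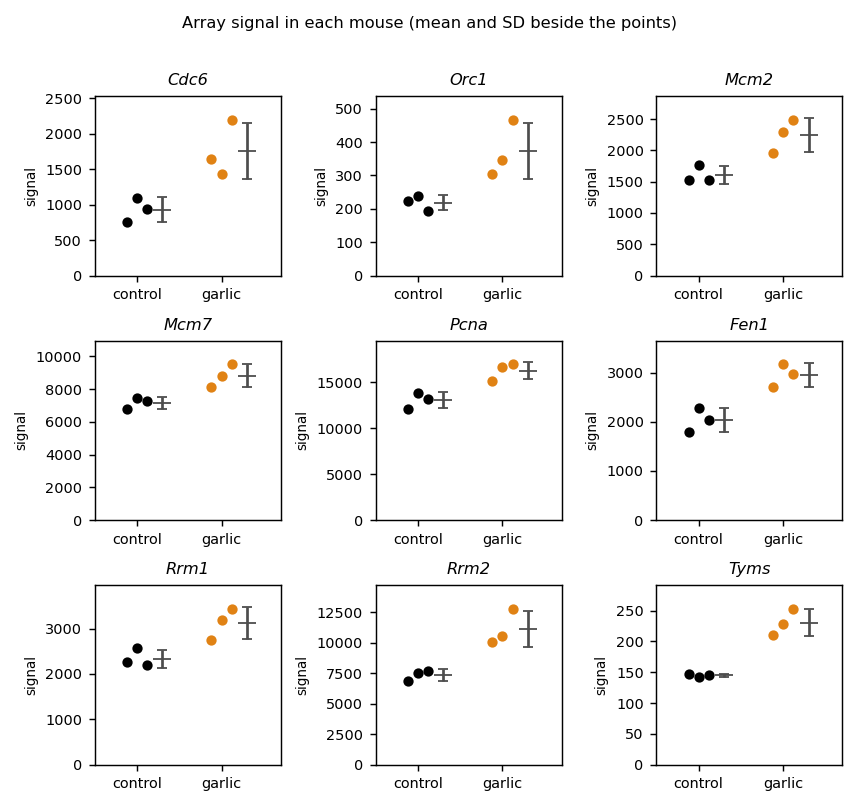
Array signal of 9 members in each control (black) and garlic-fed (orange) mouse on linear axes that start at 0, with the mean and SD of each group beside its points. In each of these genes the lowest garlic-fed mouse lies above the highest control mouse. All 9 are among the 13 members (29.5%) with the groups apart in this direction, against 9.13% of all genes, so the separation shown follows from the choice.

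Further probe sets of the members allow the same genes to be read a second time on the same arrays. Of 43 further probe sets tested, from 30 genes, 11 were higher at an unadjusted p under 0.05, 1 was lower and none passed the adjusted threshold, where 5.58% of all 27022 probe sets were higher and 5.44% lower at that p. Their median log2 fold change was 0.12. Further probe sets of Orc1, Cdt1, Mcm2, Mcm7, Prim2, Fen1 and Rrm2 were among the higher ones, as their brightest probe sets were. Those of Mcm4, Cdc45 and Prim1 were higher too, with log2 fold changes of 0.44, 0.88 and 0.54, where the brightest probe sets of these genes had not reached an unadjusted p under 0.05. The further Cdc45 probe set was dim, with signals of 105.5, 55.8 and 71.1 in the control mice against 118.1, 129.2 and 170.3 in the garlic-fed mice. The lower one was the Rfc1 probe set at -0.32.

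Of 25 further genes of the fork and of origin firing, outside the 45, 6 were higher and none was lower at an unadjusted p under 0.05. Over all genes tested, 6.89% were higher and 6.24% lower at that p, the shares beside which the counts of this and the following lists stand. None of the 25 passed the adjusted threshold, and their median log2 fold change was 0.16. Top2a, the topoisomerase that untangles copied DNA, had signals of 3124.8, 3153 and 3242.3 in the control mice against 3616.7, 4472.3 and 4959.4 in the garlic-fed mice (log2 fold change 0.44, SE 0.11, adjusted p = 0.17). Donson, a factor of fork assembly, had a log2 fold change of 0.35 (SE 0.11, adjusted p = 0.244), but a further Donson probe set gave -0.32. Of 8 genes that handle chromatin and DNA methylation at the fork, 2 were higher and none was lower at an unadjusted p under 0.05. These were Uhrf1, which recognizes half-methylated DNA, with a log2 fold change of 0.52 (SE 0.12, adjusted p = 0.134), and Dnmt1, the methyltransferase that copies methylation, with one of 0.25 (SE 0.085, adjusted p = 0.29).

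The further genes of nucleotide supply did not all differ in 1 direction. Of 13 further genes of deoxynucleotide supply tested, out of 15 listed, 2 were higher and 3 were lower by an unadjusted p under 0.05, against 6.89% and 6.24% of all genes. None passed the adjusted threshold, and the median log2 fold change was -0.078. The higher ones were Mthfd2 and Dck (log2 fold change 0.21), and the lower ones Shmt1, Samhd1 (-0.21) and Tk2 (-0.38). The genes of this list do not all act on the supply in the same way, so the counts give no direction of supply. Shmt1, an enzyme of the folate cycle that serves thymidylate synthesis, had signals of 606, 476.4 and 501.7 in the control mice against 360.5, 381.1 and 432.6 in the garlic-fed mice (log2 fold change -0.43, SE 0.15, adjusted p = 0.306). Every garlic-fed mouse lay below every control mouse, as in 10.7% of all genes, and in the opposite direction to Tyms. Mthfd2, an enzyme of the mitochondrial folate cycle, had a log2 fold change of 0.34 (SE 0.12, adjusted p = 0.333), and a further Mthfd2 probe set gave 0.023. Of 14 genes tested, out of 16 listed, that build purines and pyrimidines anew, none was higher and 1 was lower at an unadjusted p under 0.05, where 6.24% of all genes were lower. Their median log2 fold change was 0.021. The lower one was Adsl, an enzyme of purine synthesis, at -0.37 (SE 0.13, adjusted p = 0.331), and Prps2, which makes the sugar phosphate for nucleotides, had -0.14 (SE 0.11, adjusted p = 0.712).

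Among 13 genes of the E2F family, its Tfdp partners and the pocket proteins that restrain it, 4 were higher and none lower at an unadjusted p under 0.05, against 6.89% of all genes as higher. Tfdp2, a partner of E2F, passed the adjusted threshold with signals of 1538.8, 1724.6 and 1983.2 in the control mice against 2782.8, 2637.9 and 3105.6 in the garlic-fed mice (log2 fold change 0.70, SE 0.12, adjusted p = 0.048). The adjusted p was above the threshold when any 1 of the 6 mice was left out. E2f8, an E2F that represses, had 625.3, 748.5 and 728.5 in the control mice against 1041.1, 1245.9 and 1523.2 in the garlic-fed mice (log2 fold change 0.84, SE 0.15, adjusted p = 0.0668). The median over the 13 genes was 0.32.

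Genes of cell division that act before and after DNA copying also had higher signals after garlic. The cyclins of S phase entry and passage, Ccne1 and Ccna2, had log2 fold changes of 1.01 and 0.77, which passed the adjusted threshold (adjusted p = 0.0281 and 0.0227), and 2 more cyclins that the study named from the same arrays, Ccne2 and Ccnf, had 0.97 and 0.83 (adjusted p = 0.0886 and 0.0685). The study picked these cyclins from these arrays, so they are no independent support for a direction. Of 11 genes of mitosis tested, out of 12 listed, 7 were higher and none lower at an unadjusted p under 0.05, against 6.89% of all genes as higher. Their median log2 fold change was 0.48. Mki67, which coats mitotic chromosomes, passed the adjusted threshold with signals of 7032.9, 7074.5 and 7573.7 in the control mice against 10017.1, 11802.6 and 12616.6 in the garlic-fed mice (log2 fold change 0.66, SE 0.093, adjusted p = 0.0281), and Birc5, a mitotic survivin, had a log2 fold change of 0.68 (SE 0.14, adjusted p = 0.096). The calls of Ccna2, Ccne1 and Mki67 were lost when any 1 of the control mice or garlic-fed mouse 2 was left out.

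Markers of erythroid precursors were also brighter on the arrays of the garlic-fed mice. Of 8 such markers tested, out of 10 listed, 7 were higher and none lower at an unadjusted p under 0.05, against 6.89% of all genes as higher. Tfrc, the transferrin receptor, and Ermap, a red cell membrane protein, passed the adjusted threshold. Their log2 fold changes were 1.01 (SE 0.12, adjusted p = 0.0186) and 1.27 (SE 0.15, adjusted p = 0.0139), and both calls were lost without control mouse 1 or control mouse 2. The summed signal of the 8 markers lay between 33676 and 41807 in control mice and between 52042 and 70194 in garlic-fed mice. Relative to the control mean, control mice 1, 2 and 3 had a median of -0.27, 0.11 and 0.18 over these markers and garlic-fed mice 1, 2 and 3 one of 0.67, 0.85 and 1.19. Control mouse 1 was lowest and garlic-fed mouse 3 highest, as for the replication genes. Garlic-fed mouse 1 lay above the control mice here but within their range for the replication genes. The same mice were lowest and highest for the mitosis genes (-0.18 and 0.81), the named cyclins (-0.15 and 1.14) and granulocyte precursor markers (-0.47 and 1.00). Of 5 markers of granulocyte precursors, another dividing population, 3 were higher and none lower at an unadjusted p under 0.05. In Ctsg and Ms4a3 the groups overlapped. The median log2 fold change of the 5 was 0.92. Summed signals lay between 750.5 and 1180 in control mice and between 1743 and 1901 in garlic-fed mice. From these same arrays the study reported Mpo, Prtn3 and a Rhesus blood group gene as higher, and by PCR of spleen RNA Klf1, Gata1 and Tfrc. These genes are no independent support for a direction. Of 6 markers of red pulp macrophages, 4 were higher and none lower at an unadjusted p under 0.05, against 6.89% of all genes as higher. The median log2 fold change of the 6 was 0.31. Their summed signals lay between 40566 and 43822 in control mice and between 44340 and 53941 in garlic-fed mice. The part of these cell types in the differences of the replication genes was not tested. Without control mouse 1 and garlic-fed mouse 2, the arrays with the most pancreatic signal, an alternative chosen after seeing the data, 10 members were higher and none was lower at an unadjusted p under 0.05, against 3.32% of all probe sets as higher and 2.09% as lower, and the median of the members was 0.14.

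**Figure D4:**
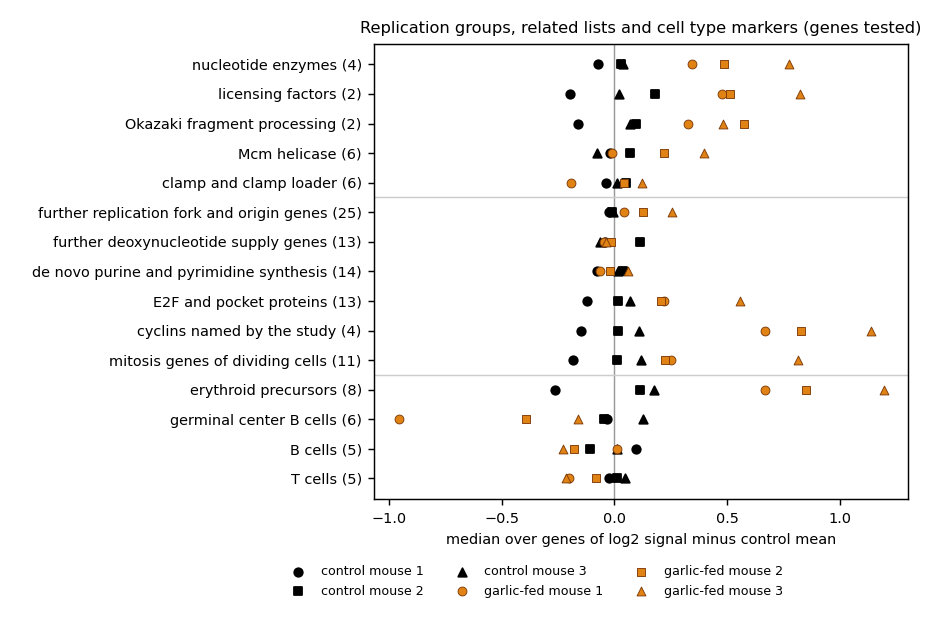
Median over the genes of each group of the log2 signal minus the control mean (horizontal axis), in each control (black) and garlic-fed (orange) mouse, with the number of genes tested in brackets; lines divide the replication groups, the related lists and the cell type markers. The 4 nucleotide enzymes lie at 0.34 to 0.77 in the garlic-fed mice, the purine and pyrimidine genes near 0, and the erythroid markers at 0.67 to 1.19.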

How the data were processed

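Spleen RNA of 3 control and 3 garlic-fed mice was measured on 1 array each. The deposited values are MAS5 signals, intensity values on a linear scale made by the authors. In each array the mean of the values, after trimming 2% from either end, came to 500, and the MAS5 version is not given in the sources used here. From 45101 probe sets 64 controls were left out. The annotation gave 34945 of the remaining 45037 the name of 1 gene, 932 several and 9160 none. By gene identifier 34741 were matched to RefSeq, and 0 names changed as a result.

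A floor of 23.5, the 20th percentile, was applied before log2, and probe sets with a mean log2 signal of 6.08 (the 40th percentile) or less were left out. Garlic minus control was tested in limma 3.58.1 under R 4.3.3 (lmFit, eBayes with a trend of variance), with Benjamini-Hochberg adjustment over 27022 probe sets. The procedure was tested on simulated data. Percentages of all genes are over 12262 genes, each by its brightest probe set. The precision is limited by the number of arrays.

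The members, the other gene lists and the tests were chosen with earlier results of these data known. By rule, the member with the smallest p and the brightest member of each complex are described in full, members at an unadjusted p under 0.05 are named, and of other lists the 2 genes with the smallest p are named. The values per mouse of Lig1, Rrm1, Tk1 and Rfc1 and the promoters shown were added after the values were seen. So were the sentences on Mcm4, Ccne2, Ccnf, Dck, Samhd1, Tk2, Hmox1, Tfrc, Ermap, Adipoq and single T cell genes. Single further probe sets of members and of Donson and Mthfd2 were also described after their values were seen. Replicate numbers do not pair the mice. Alternatives were other normalizations, floors, filters, variance models, the methods' t-test, a replicate block, each mouse left out, and averaging the probe sets of a gene. The averages took in probe sets that were under the filter in the main fit.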

Additional observations from a re-analysis of the deposited data

How the results depend on the processing

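The count of 14 members higher at an unadjusted p under 0.05 lay between 10 and 20 under all 17 alternatives, with 10 by the methods' t-test and 11 to 20 with 1 mouse left out, while the share of all features higher at that p lay between 3.32% and 8.32%. Of the 14, Tk1, Cdt1, Gins1, Prim2, Rrm1 and Lig1 were lost under at least 1 alternative, and the others, Orc1, Cdc6, Mcm2, Mcm7, Pcna, Fen1, Rrm2 and Tyms, under none of those that gave a value. Members lower at that p numbered 1 of 44 without the filter on dim probe sets (Rfc1), where 4.69% of all features were lower. They numbered 0 to 2 of 44 with 1 mouse left out. The 2 were Mcm4 and Gins2 without garlic-fed mouse 3, where 7.25% of all features were lower. Tyms has no value with the filter at the 60th percentile or with probe sets averaged. Members past the adjusted threshold, 0 in the fit reported, numbered 1 with the floor at the 40th percentile (Rrm2), 1 with quantile normalization (Rrm2), 2 with each array centred on its median (Cdc6 and Rrm2) and 0 to 1 with 1 mouse left out (Rrm2 without garlic-fed mouse 1 or 3), and none was lower under any alternative. The number that met the study's criterion, 1, was 0 to 2 with 1 mouse left out. The median of the members lay between 0.109 and 0.27. By complex, it was 0.067 for the helicase activators and -0.466 for Chaf1b with the probe sets of a gene averaged, 0.2 for replication protein A with median centring, and 0.322 for the lagging-strand genes without the arrays of most pancreatic signal. The average for Chaf1b took in a further probe set under the filter on dim probe sets. The causes of these shifts were not tested.

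Over all probe sets, 61 were called higher and 3 called lower. These numbers were 147 higher with median centring, 4 and 7 without the filter, 6 lower with the floor at the 40th percentile, 0 and 0 without the trend of variance or with the methods' t-test, 2 and 26 without the arrays of most pancreatic signal, and 0 to 106 higher and 0 to 34 lower with 1 mouse left out (0 higher without control mouse 1 or 2, 28 without garlic-fed mouse 2, 33 without control mouse 3 and 106 without garlic-fed mouse 1). Among single genes, Pold1 lay between -0.0583 (without garlic-fed mouse 2) and 0.15 with 1 mouse left out, being -0.0286 without garlic-fed mouse 1, and at -0.0745 without the arrays of most pancreatic signal. Chaf1b lay between -0.0274 (without control mouse 1) and 0.321 with 1 mouse left out, being -0.00425 without garlic-fed mouse 3.

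Mice of the same replicate number did not deviate together, with correlations of 0.00064, -0.18 and 0.078 for numbers 1, 2 and 3. With the replicate block, 3 members (Cdc6, Fen1 and Rrm2) were higher past the adjusted threshold, and 270 probe sets were higher and 25 lower.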

Other observations

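Germinal center B cells are dividing lymphocytes of the white pulp. Of 6 of their markers tested, none was higher and 3 were lower at an unadjusted p under 0.05, against 6.24% of all genes as lower, none passed the adjusted threshold of limma, and the groups were apart in 1. Their median log2 fold change was -0.43. Rgs13, a regulator of G protein signaling in these cells, had signals of 837, 377.2 and 524.3 in the control mice against 158.4, 231.1 and 418.9 in the garlic-fed mice, with overlap (log2 fold change -1.14, SE 0.36, adjusted p = 0.257). Mybl1, a Myb factor of these cells, had 186.7, 173 and 200.4 in the control mice against 86.7, 125.4 and 123.8 in the garlic-fed mice, without overlap (log2 fold change -0.76, SE 0.23, adjusted p = 0.235). Bcl6, the transcription factor that defines them, had a log2 fold change of -0.055 (SE 0.11, adjusted p = 0.907). These 3 genes were chosen after their values were seen.

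Of 5 B cell genes 1 was lower at an unadjusted p under 0.05 and of 5 T cell genes none was, with median log2 fold changes of -0.15 and -0.19. In 3 of the T cell genes, Cd3e, Cd3g and Cd4, every garlic-fed mouse was nevertheless lower than every control mouse, where 10.7% of all genes were so.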
